A study of Mus musculus with 18 samples.

Results

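The genes for the 4 teneurins (Tenm1 to Tenm4), the 3 fibronectin leucine-rich transmembrane proteins (Flrt1 to Flrt3) and the 3 latrophilins (Adgrl1 to Adgrl3) were followed across newborn mouse frontal cortex, as 10 of the 54532 genes counted. They were chosen by name, as adhesion proteins that bind one another, and in part from measured values, since the orbital differences of Tenm4 and Flrt2 between mutant and control in these data were already known. That orbital difference is therefore described without a test for every member. RNA was taken at postnatal day 0 from control mice and from mice labelled as double mutants of Rxrg and Rarb (dKO), 2 nuclear receptors for retinoids. Each genotype was sampled in tissue labelled orbital, medial or dorsal, so 18 libraries formed 6 groups of 3. The labels give neither the alleles, the strain nor the sex, and do not say whether separate libraries come from separate pups, so the p-values here cover no more than the scatter among the libraries sequenced. All 10 genes passed the filter on low counts, with 153 to 21351 fragments per gene and library.

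Latrophilins are adhesion G protein-coupled receptors of axons and synapses. Teneurins are very large single-pass proteins whose extracellular part binds latrophilins on the facing cell. FLRTs bind latrophilins as well, and also Unc5 receptors, through which they can repel migrating cortical neurons and growing axons. The same proteins can thus hold cells together or push them apart, depending on the partners present, and in the brain they are known for matching axons to targets and for specifying synapses.

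Some features of the libraries touch all results below. Totals ran from 28957325 to 93093398 fragments. The titles carry the prefix RAR in 6 libraries and RXR in 12, and prefix and index place the libraries in 3 sets of 1 control and 1 dKO row of 3 regions, called A (prefix RAR), B and C and equal to replicates 1, 2 and 3. Between any pair of replicates of a group the chi-square of the counts, divided by its degrees of freedom, was 37.9 to 172, so no replicates of a group were copies. Both targeted genes differed clearly between genotypes in sets B and C, where the log2 difference of dKO from control was -2.13 to -1.21 for Rarb and -4.48 to -1.83 for Rxrg. In set A it was only -0.60 to -0.17 for Rarb and -0.82 to 0.30 for Rxrg, which went against the label in orbital tissue, with 2.90 CPM (a gene's count scaled by the library's total) in the library labelled dKO and 2.35 CPM in its control. Control and dKO therefore stand throughout for the libraries labelled so. Only 6 libraries, the dKO rows of sets A and C, held more than 1 CPM of Xist, the RNA of the inactive X chromosome, so sex was not balanced between genotypes. Long genes also varied as a class: the median deviation of protein-coding genes with over 12 kb of exon, less that of genes with up to 2 kb, was -1.26 on the log2 scale in orbital control replicate 3, -0.444 in orbital control replicate 1 and between -0.411 and 0.621 in the other 16 libraries. The members have 4.87 to 21.02 kb of exon, so values without replicate 3, without set A or with the length trend removed stand beside the results they touch.

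The 3 families were present at very different levels per exon length. FPKM, the CPM divided by the kilobases of exon, is used wherever genes are compared. In dorsal control tissue the latrophilins Adgrl1 and Adgrl2 led with 28.1 ± 3.71 and 22.1 ± 3.54 FPKM (SD, n = 3), and their libraries overlapped each other. Flrt3 at 15.5 ± 3.54 and Flrt2 at 14.9 ± 4.21 FPKM came next and were not separated either, but all libraries of both lay below those of Adgrl2. Tenm3 (4.41 ± 2.05), Tenm2 (3.44 ± 1.55) and Adgrl3 (2.94 ± 0.39 FPKM) formed a lower tier in which neighbours overlapped. At the bottom, Flrt1 (1.70 ± 0.449), Tenm1 (1.43 ± 0.469) and Tenm4 (1.02 ± 0.348 FPKM) overlapped in turn. In medial control tissue Flrt2 stood first at 27.6 ± 2.90 FPKM, and in orbital controls Flrt3 did at 18.9 ± 2.38 FPKM, in both regions overlapping the gene ranked next. In such bulk tissue fewer cells of a type and less RNA per cell cannot be told apart.

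Summed over a family, the mean of latrophilins was highest in dorsal tissue and that of FLRTs in medial tissue of controls. The latrophilins summed to 53.1 ± 4.27 FPKM in dorsal, 40.0 ± 14.6 in medial and 29.2 ± 8.23 in orbital controls (SD, n = 3). FLRTs summed to 51.7 ± 1.42 FPKM in medial, 34.5 ± 5.11 in orbital and 32.1 ± 5.95 in dorsal controls. Teneurins were the least abundant family, at 16.9 ± 4.58 FPKM in medial, 10.3 ± 3.75 in dorsal and 7.13 ± 2.19 in orbital controls. Their medial libraries (11.7 to 19.6 FPKM) overlapped the dorsal ones (5.97 to 12.5 FPKM). Within the teneurins, Tenm2 and Tenm3 made up most of the total in every group, with mean shares of 30.6% to 49.9% and 29.4% to 43.5%.

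**Figure D1:**
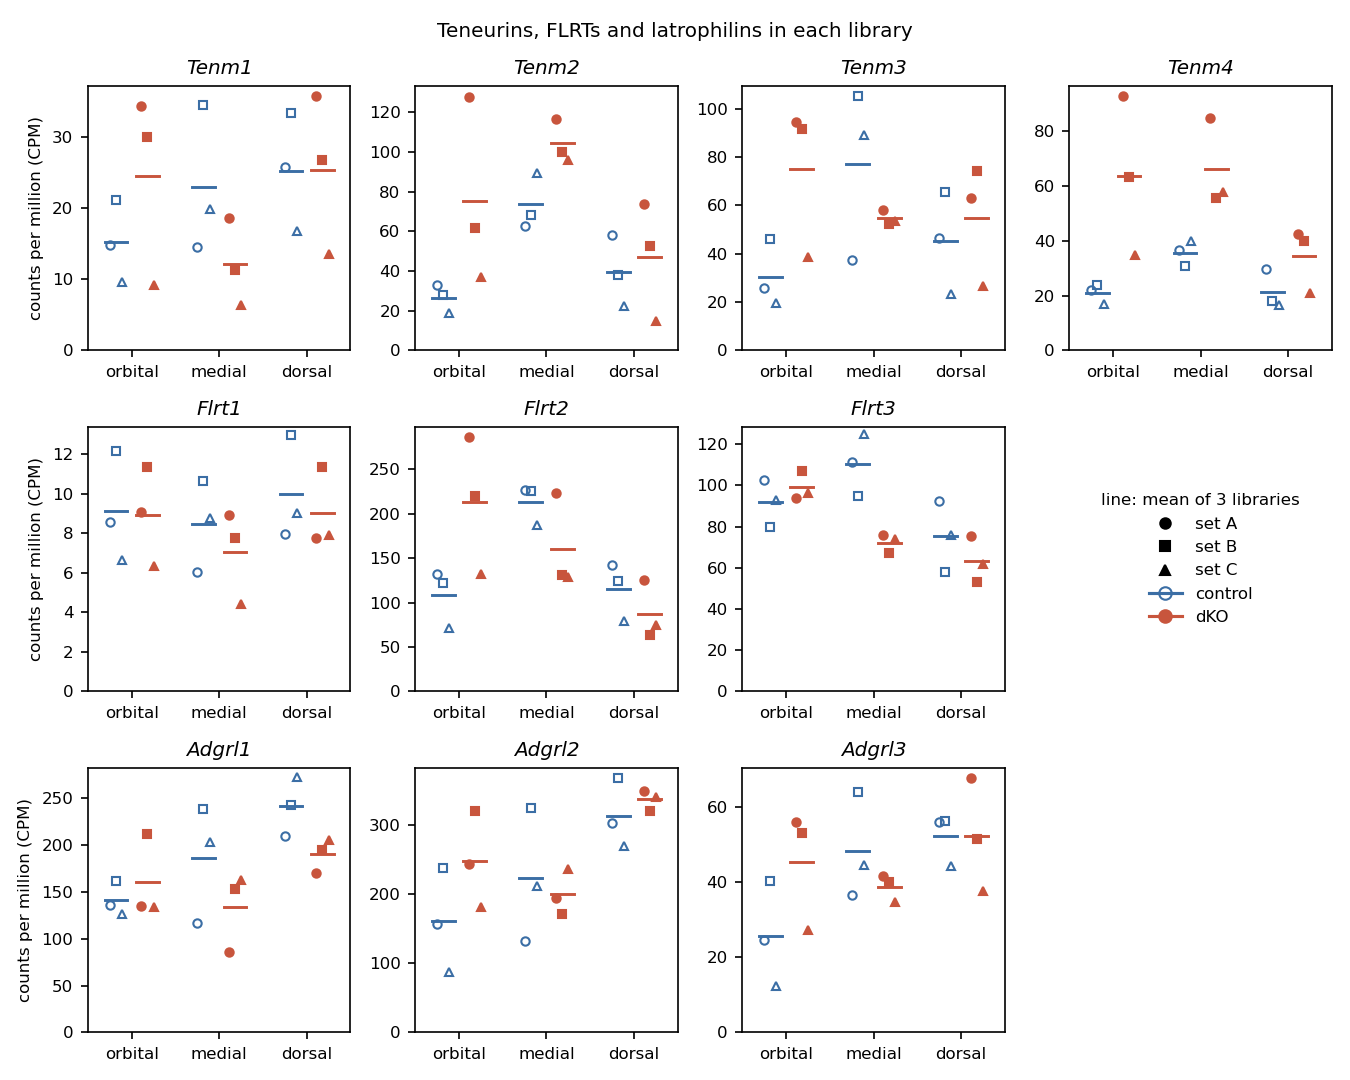
CPM of each of the 10 genes in every library (vertical axes start at 0), by region, with control libraries as open and dKO libraries as filled symbols, a symbol shape for each set and a line at the mean of 3 libraries. Tenm4 lies at 34.7 to 92.7 CPM in the 3 orbital dKO libraries, above the 16.8 to 23.8 CPM of the orbital controls.

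In orbital tissue, 9 of the 10 members had a positive difference between dKO and control, with a median log2 fold change of 0.74 where all 18730 genes tested had a median of -0.03. These values were known in part when the genes were chosen, and nothing is read from the count. Over all genes 0.0374% passed an edgeR adjusted p of 0.05. The teneurins led: the fitted log2 fold change was 1.54 for Tenm4 (SE 0.26), 1.403 for Tenm2 (SE 0.40), 1.31 for Tenm3 (SE 0.46) and 0.65 for Tenm1 (SE 0.47). Flrt2 (0.95, SE 0.22), Adgrl3 (0.82, SE 0.34) and Adgrl2 (0.63, SE 0.31) followed, while Adgrl1 (0.16), Flrt3 (0.12) and Flrt1 (-0.02) lay within 1 SE of 0.

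Tenm4, on GRCm38 chromosome 7 from 96171246 to 96911093 (plus strand), encodes a teneurin known for roles in axon guidance and in the myelination of small axons. Its orbital controls held 22.2, 23.8 and 16.8 CPM in sets A, B and C, and the dKO libraries 92.7, 63.4 and 34.7 CPM. All dKO libraries lay above all controls, as for 5.56% of genes tested in orbital tissue. In medial tissue the controls held 36.6, 30.8 and 39.8 CPM and the dKO libraries 84.8, 55.7 and 57.8 CPM, again with no overlap (11.7% of genes had all medial dKO libraries above all controls). Dorsal controls held 29.8, 17.96 and 16.5 CPM and dorsal dKO 42.4, 40.1 and 20.9 CPM, which overlap. Set by set, Tenm4 was higher in dKO by 1.05 to 2.06 on the log2 scale in orbital tissue, the difference known beforehand. It was higher by 0.54 to 1.21 in medial and by 0.34 to 1.16 in dorsal tissue. The regions of a row are not independent, so these differences are not counted as separate support. Medial and dorsal tissue, where the difference was tested, gave log2 fold changes of 0.77 (SE 0.25, edgeR adjusted p = 0.134) and 0.65 (SE 0.25, edgeR adjusted p = 0.623). With the medial and dorsal counts of each row summed, it was 0.70 (SE 0.15, edgeR adjusted p = 0.168), while DESeq2 put the same contrast past the threshold of 0.05 (0.70, DESeq2 adjusted p = 0.00229). Of 15 alternative settings only DESeq2 did so. The log2 fold change lay between 0.64 and 0.80 in all of them, including sets B and C alone and removal of the length trend.

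Tenm2 (chromosome 11, 36006656 to 37235964, minus strand), a teneurin studied as a latrophilin ligand at synapses, had 33.1, 27.8 and 18.6 CPM in orbital controls of sets A, B and C. Orbital dKO libraries held 128, 61.4 and 36.8 CPM, all above the controls, though the dKO values were far apart. In medial tissue 62.6, 68.4 and 89.6 CPM in controls stood beside 117, 100.0 and 96.2 CPM in dKO, also without overlap. This medial difference was small against the residual spread, with a log2 fold change of 0.38 (SE 0.39, edgeR adjusted p = 0.723). Tenm3 (chromosome 8, 48227682 to 48843951, minus strand), known for homophilic matching of connected neurons in the hippocampus and visual system, overlapped between genotypes in each region. Its orbital controls ran from 19.5 to 45.9 CPM and its orbital dKO libraries from 38.7 to 94.5 CPM. In medial tissue it had the opposite sign (-0.56, SE 0.46, edgeR adjusted p = 0.638), with 37.4 to 105 CPM in controls and 52.1 to 58.0 CPM in dKO.

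Flrt2 (chromosome 12, 95692226 to 95785215, plus strand) encodes an adhesion protein whose shed extracellular part repels neurons that carry Unc5d. It was the one member with all 3 sets higher in dKO in orbital tissue and all 3 lower in both other regions. Orbital libraries held 132, 122 and 71.7 CPM in controls of sets A, B and C and 286, 220 and 132 CPM in dKO, so that the lowest dKO library (132.2 CPM) and the highest control (132.4 CPM) overlapped narrowly. Medial tissue held 227, 225 and 187 CPM in controls and 223, 131 and 128 CPM in dKO, and dorsal tissue 143, 124 and 79.3 CPM against 125, 63.0 and 74.8 CPM. Neither lower value passed the test: the log2 fold change was -0.55 in medial (SE 0.22, edgeR adjusted p = 0.229) and -0.49 in dorsal tissue (SE 0.22, edgeR adjusted p = 0.707). Without the filter on low counts, Flrt2 passed in the summed medial and dorsal counts (-0.61, edgeR adjusted p = 0.0457, against -0.58 and edgeR adjusted p = 0.258 with it). That was the only 1 of 15 alternative settings in which it passed there.

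Promoter sequences of the genes that lead in orbital tissue are printed because the receptors encoded by the mutated genes bind DNA at hexamers of the AGGTCA type. RefSeq (GRCm38.p6) gave windows from 250 bases before to 50 after a start for 9 of the 10 members, 12 windows in all. The motif AGGTCA, its variant GGGTCA, and likewise AGTTCA as well as GGTTCA, was searched on both strands, alone and as direct repeats spaced by 1, 2 or 5 bases, where a hexamer may count in more than 1 repeat. Of the 5 windows shown, which are those of Tenm4 (chr7:96170994-96171293 and chr7:96211421-96211720, plus strand), Flrt2 (chr12:95691976-95692275, plus), Tenm2 (chr11:36944192-36944491, minus) and Tenm3 (chr8:48674641-48674940, minus), only the last held such a hexamer, AGTTCA on the opposite strand, shown as its reverse complement in capitals.
Tenm4 first start: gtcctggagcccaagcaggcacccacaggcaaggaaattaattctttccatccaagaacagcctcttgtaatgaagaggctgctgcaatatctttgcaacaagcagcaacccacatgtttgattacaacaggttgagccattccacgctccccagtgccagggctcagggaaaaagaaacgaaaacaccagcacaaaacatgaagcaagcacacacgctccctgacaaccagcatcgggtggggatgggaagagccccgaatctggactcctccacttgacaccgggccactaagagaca
Tenm4 second start: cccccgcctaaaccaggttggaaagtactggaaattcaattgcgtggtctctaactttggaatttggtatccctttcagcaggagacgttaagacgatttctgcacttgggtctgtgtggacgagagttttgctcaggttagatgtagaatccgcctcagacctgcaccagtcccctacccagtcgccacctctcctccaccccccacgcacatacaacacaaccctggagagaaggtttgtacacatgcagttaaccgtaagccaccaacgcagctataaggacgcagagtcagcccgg
Flrt2: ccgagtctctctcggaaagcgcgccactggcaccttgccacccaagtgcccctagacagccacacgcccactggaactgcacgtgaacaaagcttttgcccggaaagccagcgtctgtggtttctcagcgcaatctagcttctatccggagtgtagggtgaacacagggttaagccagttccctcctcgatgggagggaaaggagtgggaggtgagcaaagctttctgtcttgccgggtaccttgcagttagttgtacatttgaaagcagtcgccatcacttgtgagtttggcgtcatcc
Tenm2: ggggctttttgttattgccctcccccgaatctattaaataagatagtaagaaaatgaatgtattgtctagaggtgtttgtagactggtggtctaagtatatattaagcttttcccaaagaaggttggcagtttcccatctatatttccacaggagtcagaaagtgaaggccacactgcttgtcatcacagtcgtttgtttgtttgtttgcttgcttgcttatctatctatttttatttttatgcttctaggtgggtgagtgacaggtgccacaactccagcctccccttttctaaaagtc
Tenm3: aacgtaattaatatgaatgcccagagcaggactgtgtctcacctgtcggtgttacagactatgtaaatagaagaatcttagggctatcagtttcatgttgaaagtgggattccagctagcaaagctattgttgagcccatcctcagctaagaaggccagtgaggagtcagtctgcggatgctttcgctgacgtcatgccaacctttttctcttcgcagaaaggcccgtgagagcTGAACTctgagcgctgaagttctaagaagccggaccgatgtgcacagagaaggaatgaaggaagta

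The window of Tenm1 also held a hexamer of this kind (AGGTCA) and so did 1 of the 3 windows of Adgrl3 (GGTTCA), so 3 of 12 windows had any of the 4 hexamers. Among all 32851 RefSeq promoter windows of this length 43.7% held one and 16.3% held AGGTCA itself. No member window held a direct repeat, which 0.222%, 0.268% and 0.0974% of all windows did at spacings of 1, 2 and 5 bases. The windows of Tenm1, Tenm2, Tenm3 and Adgrl2 lie inside the gene spans given here, away from their upstream ends (37235964 for Tenm2 and 48843951 for Tenm3). Those ends were not searched. The search covers only the windows named.

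**Figure D2:**
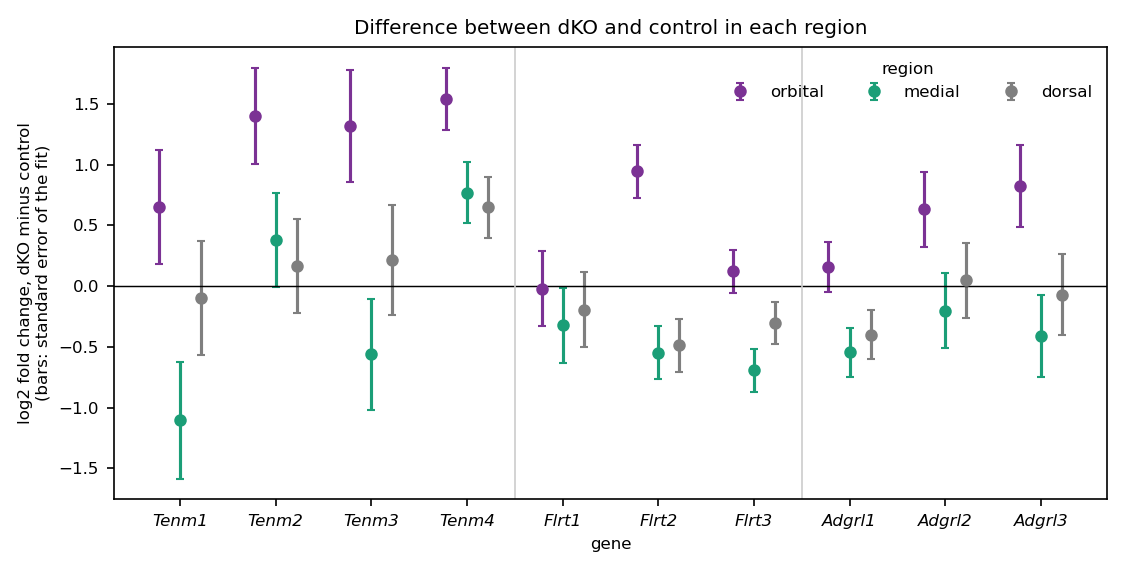
Log2 fold change of dKO minus control for each gene in orbital, medial and dorsal tissue, with bars of 1 standard error of the fit over all 18 libraries and vertical lines between the 3 families. The orbital points (described, not tested) lie above the medial and dorsal points for all 10 genes, from -0.02 for Flrt1 to 1.54 for Tenm4.

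More genes differed between genotypes in medial than in orbital or dorsal tissue, but no member passed there with edgeR. Of 18730 genes tested, 2.08% passed, and of the members 0 of 10. At an unadjusted p under 0.05 were 5 of 10 members and 2816 of all genes. With DESeq2 and with limma-voom 1 member passed, Flrt3 in both. Only Tenm4 and Tenm2, 2 of 10, had a positive value, and the median log2 fold change was -0.48 beside -0.004 for all genes.

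Flrt3 (chromosome 2, 140650914 to 140671469, minus strand), an FLRT that binds latrophilins and Unc5b and modulates guidance receptors in axons, was nearest to the threshold. Medial controls held 111, 95.1 and 125 CPM in sets A, B and C and medial dKO libraries 75.7, 67.1 and 73.9 CPM. All 3 dKO libraries were lower than all controls, as for 6.47% of genes tested in medial tissue, and the dKO values were close together. The log2 fold change was -0.69 (SE 0.18, edgeR adjusted p = 0.0524). It passed with DESeq2 (-0.68, adjusted p = 0.0066) and limma-voom (-0.69, adjusted p = 0.031), and also without the filter on low counts and after removal of the length trend. Without any 1 of the 6 medial libraries it did not pass with edgeR (adjusted p = 0.0701 to 0.244), nor with sets B and C alone (-0.67, edgeR adjusted p = 0.276). Flrt3 lies inside an intron of Macrod2 on the other strand, and the exons of the genes do not overlap, while the counting ignored strand. Unspliced Macrod2 RNA could thus count for Flrt3, and Macrod2 itself differed by -0.33 to 0.51 (log2) between dKO and control in the medial sets.

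Tenm1 (chromosome X, 42527866 to 43429126, minus strand), the X-linked teneurin, had the most negative medial value without passing: -1.11 (SE 0.48, edgeR adjusted p = 0.276). Its sets disagreed, with log2 differences of 0.36 in set A and -1.61 and -1.65 in sets B and C. With sex as a further term the value was -0.77 (SE 0.55). Adgrl1 (chromosome 8, 83900105 to 83941954, plus strand), the best-studied latrophilin and the receptor of alpha-latrotoxin, was lower in dKO in all 3 sets of medial tissue (117, 238 and 203 CPM in controls and 85.5, 153 and 163 CPM in dKO) and of dorsal tissue. Medial groups overlapped (-0.55, SE 0.20, edgeR adjusted p = 0.196). Adgrl2, Adgrl3 and Flrt1 had medial log2 fold changes of -0.20, -0.41 and -0.32, none near the threshold.

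Markers of other cells moved with the medial comparison. Of 10 cell cycle genes 9 passed as higher in medial dKO tissue with edgeR, and all 10 had a positive value. The summed level of the list ran from 89.5 to 143 CPM in controls and from 290 to 496 CPM in dKO. Of 10 radial glia and intermediate progenitor genes 4 passed as higher (Pax6, Vim, Gas1 and Eomes), and all 10 had a positive value. They summed to 683 to 952 CPM in controls and 1262 to 1892 CPM in dKO. Of 6 astrocyte genes 2 passed as higher and all 6 had a positive value, with sums of 162 to 361 CPM and 478 to 674 CPM. In the upper layer list 1 of 8 genes passed as higher, and in the deep layer list 1 of 8 passed as lower. The 7 excitatory neuron genes, none past the test, summed to 2093 to 2837 CPM in controls and 2062 to 2460 CPM in dKO, and no marker was at 0. The part of these shifts in the members' medial values was not tested. In orbital tissue no marker passed: all 8 microglial genes (240 to 288 CPM summed in controls, 125 to 206 in dKO) and all 6 meningeal fibroblast genes (1644 to 2412 and 884 to 1594 CPM) were lower, and all 10 cell cycle genes were higher (133 to 206 and 245 to 369 CPM). Their part in the orbital values of the members was not tested.

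Dorsal tissue gave no call among the members with edgeR, DESeq2 or limma-voom, and 2 of 10, Tenm4 and Flrt2, had an unadjusted edgeR p under 0.05, as had 1270 of 18730 genes. Only 0.0214% of all genes passed there. Adgrl1 was the one member whose dorsal libraries did not overlap, with 209, 243 and 273 CPM in controls and 171, 195 and 205 CPM in dKO; 3.09% of genes tested had all dorsal dKO libraries below all controls. Its log2 fold change was -0.40 (SE 0.20, edgeR adjusted p = 0.763), and Adgrl1 shares 12.9% of its exon bases with the antisense gene Gm10644 in counts that ignore strand. Summed medial and dorsal counts gave no call either, where 0.016% of 18731 genes passed and 4 of 10 members and 2210 of all genes had an unadjusted p under 0.05. The 4 were Tenm4, with a positive value, and Flrt2, Flrt3 (-0.55) and Adgrl1 (-0.43).

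Whether the dKO difference varied between medial and dorsal tissue was tested in a fit with each row of 3 regions as a block. No gene of 18730 passed (0%) with edgeR, 61 did with DESeq2 and 2 with limma-voom, 969 had an unadjusted edgeR p under 0.05, and among the members Tenm1 (-0.96, SE 0.30, edgeR adjusted p = 0.75) and Flrt3 (-0.40, SE 0.19, edgeR adjusted p = 0.965) had an unadjusted p under 0.05. DESeq2 and limma-voom called no member. Orbital tissue against the other regions is given as a description, since it holds the orbital contrast (over all genes 1.47% passed for orbital against medial and 0% for orbital against dorsal tissue). The dKO difference in orbital exceeded that in medial tissue by 1.78 (SE 0.48) for Tenm3, 1.64 (SE 0.30) for Tenm1, 1.502 (SE 0.22) for Flrt2, 1.25 (SE 0.33) for Adgrl3 and 0.81 (SE 0.19) for Flrt3 on the log2 scale. The excess was 0.92 for Tenm2, 0.87 for Adgrl2, 0.72 for Tenm4, 0.71 for Adgrl1 and 0.32 for Flrt1. Against dorsal tissue the excess was 1.43 (SE 0.22) for Flrt2 and 1.31 (SE 0.49) for Tenm2. It was 1.11 for Tenm3, 0.98 for Adgrl3, 0.91 for Tenm4 and 0.68 for Tenm1. Adgrl2 (0.65), Adgrl1 (0.56), Flrt3 (0.41) and Flrt1 (0.15) followed.

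The orbital values depended on how set A, orbital control replicate 3 and long genes entered. With sets B and C alone the orbital log2 fold change was 1.34 for Tenm4 (SE 0.35), 1.15 for Tenm2, 1.07 for Tenm3, 0.93 for Flrt2 and 0.70 for both Adgrl2 and Adgrl3. Without orbital control replicate 3 it was 1.48 for Tenm4, 1.30 for Tenm2, 1.08 for Tenm3, 0.79 for Flrt2 and 0.50 for Adgrl3. Each kept its sign. Over protein-coding genes the median orbital difference rose from -0.27 with up to 2 kb of exon (2018 genes) to 0.28 above 12 kb (840 genes). With this trend removed in each library by an offset, the orbital values became 1.07 for Tenm4, 1.15 for Tenm2, 1.14 for Tenm3, 0.84 for Flrt2, 0.52 for Adgrl3, 0.38 for Adgrl2, 0.26 for Tenm1 and 0.002 for Adgrl1.

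**Figure D3:**
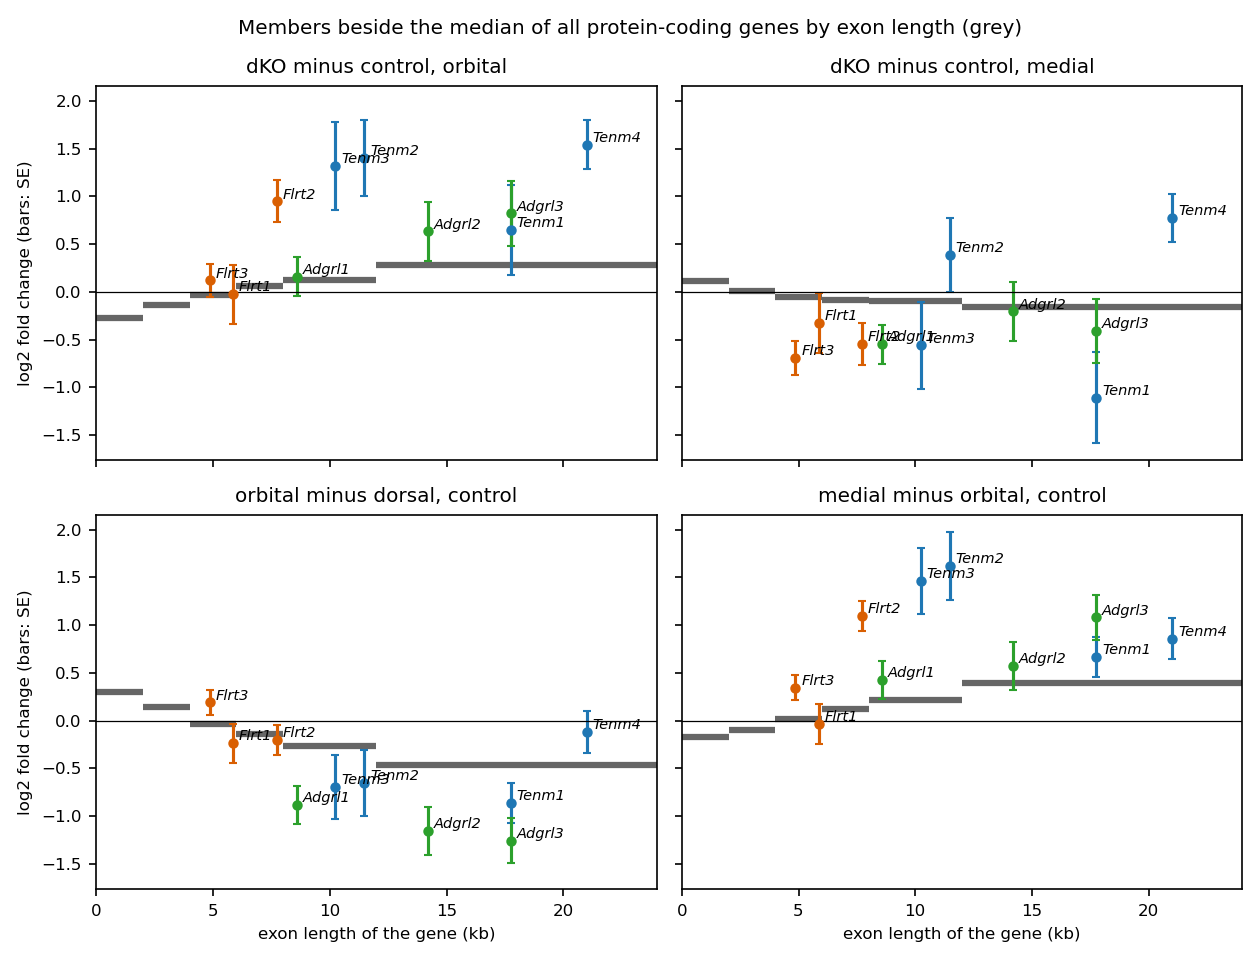
Log2 fold change of each gene (points, with bars of 1 standard error, colours for the families) against its exon length in kb, with grey bars for the median of all protein-coding genes of that length, in 4 comparisons. Genes above 12 kb have a median of 0.28 in orbital dKO minus control and of -0.46 in orbital minus dorsal controls, and Tenm4 at 21.02 kb lies at 1.54 and -0.12.

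Regions of control tissue were compared within rows. The orbital control libraries are those of the genotype contrast known beforehand, so Tenm4 and Flrt2 are given without a test wherever orbital tissue enters. Tests of the other members there share the orbital libraries of that contrast and are not independent of it. Their counts are therefore not read as a result about the family. Between medial and dorsal controls, where 0.491% of genes passed, Flrt2 was the single member called: it was higher in medial tissue by 0.89 (SE 0.16, edgeR adjusted p = 0.0271), with 227, 225 and 187 CPM against 143, 124 and 79.3 CPM in sets A, B and C. Of 8 upper layer markers 3 passed as lower in medial controls (1546 to 2126 CPM summed, 1917 to 3199 in dorsal), and 0 had a positive value. Of 7 excitatory neuron and 8 deep layer markers 1 each passed as higher. The part of these markers was not tested. Tenm2 (0.97), Tenm4 (0.74) and Flrt3 (0.53) were also higher in medial tissue in each of 3 sets, and Adgrl1 (-0.45) and Adgrl2 (-0.59) lower, without passing. The Flrt2 call was lost without dorsal control replicate 1, 2 or 3 or medial control replicate 2 or 3 (edgeR adjusted p = 0.0738 to 0.263) and without the row block (0.88, edgeR adjusted p = 0.294).

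Adgrl1, Adgrl2 and Adgrl3 were lower in orbital than in dorsal controls. The orbital control libraries are part of the contrast known beforehand. Adgrl3 (chromosome 5, 81020138 to 81825133, plus strand), a receptor for both FLRT3 and teneurins at excitatory synapses, held 24.6, 40.1 and 12.2 CPM in orbital and 56.0, 56.2 and 44.1 CPM in dorsal controls, a log2 difference of -1.26 (SE 0.24, edgeR adjusted p = 0.0049). Adgrl2 (chromosome 3, 148815583 to 148990555, minus strand), a latrophilin of postsynaptic sites, held 156, 238 and 87.1 CPM against 302, 368 and 270 CPM (-1.16, SE 0.25, edgeR adjusted p = 0.00888). Adgrl1 followed with 135, 162 and 126 CPM against 209, 243 and 273 CPM (-0.88, SE 0.20, edgeR adjusted p = 0.011), and Tenm1 with 14.9, 21.3 and 9.60 CPM against 25.8, 33.4 and 16.8 CPM (-0.86, SE 0.21, edgeR adjusted p = 0.0146). All 3 sets went the same way in each of the 4. Of the 8 members tested 4 passed, all lower in orbital tissue, where 9.44% of all genes passed as lower. This count shares the orbital libraries of the known contrast and is not read as support. Tenm4 (-0.12) and Flrt2 (-0.20) lay nearer to 0. Markers moved with this comparison: 6 of 8 upper layer genes passed as lower in orbital controls (890 to 1500 CPM summed, 1917 to 3199 in dorsal), and 0 had a positive value. Of 8 microglial genes 6 passed as higher and all 8 had a positive value (240 to 288 and 116 to 136 CPM). Passing as higher were also 4 of 10 radial glia and progenitor genes (1056 to 1287 and 753 to 892 CPM), 4 of 10 cell cycle genes (133 to 206 and 77.02 to 208 CPM) and 2 of 6 meningeal genes (1644 to 2412 and 942 to 1126 CPM). In the excitatory neuron list 2 of 7 genes passed as lower and 1 as higher, and 2 of 8 deep layer genes passed as lower. Of 6 oligodendrocyte lineage genes 1 passed as lower. In the striatal list 2 of 8 genes passed as higher, and so did 1 of 4 olfactory bulb genes. The olfactory bulb list summed to 14.9 ± 13.4 CPM in orbital and 2.63 ± 0.659 CPM in dorsal controls (SD, n = 3). The part of all these lists in the members' values was not tested.

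The orbital to dorsal difference in controls moved with exon length, from a median of 0.30 up to 2 kb to -0.46 above 12 kb. With the trend removed, Adgrl3 was at -0.78 (edgeR adjusted p = 0.00681), Adgrl2 at -0.74 (0.0131) and Adgrl1 at -0.63 (0.0225), still past the threshold, and Tenm1 at -0.37 (0.127) was not. Without orbital control replicate 3, Adgrl3 passed (-0.95, edgeR adjusted p = 0.0197), while Adgrl2 (-0.88, 0.0504), Adgrl1 (-0.74, 0.0681) and Tenm1 (-0.76, 0.0752) did not. Leaving out dorsal control replicate 1 left Adgrl3 as the single call, and leaving out orbital control replicate 2 left Adgrl2 and Adgrl3. Leaving out dorsal control replicate 3 ended the call of Adgrl1 alone. Without the row block only Adgrl1 passed.

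The teneurins Tenm2 and Tenm3 were higher in medial than in orbital controls. Tenm2 had 62.6, 68.4 and 89.6 CPM in medial and 33.1, 27.8 and 18.6 CPM in orbital controls (1.62, SE 0.36, edgeR adjusted p = 0.0173). Tenm3 had 37.4, 105 and 89.3 CPM against 25.8, 45.9 and 19.5 CPM (1.46, SE 0.34, edgeR adjusted p = 0.0212), where the groups overlapped but every row went the same way. Adgrl3 was higher too (1.08, SE 0.23, edgeR adjusted p = 0.0166). Tenm1 did not pass (0.66, SE 0.21, edgeR adjusted p = 0.0638), and its set A had a difference of -0.04. Of the 8 members tested 3 passed, beside 9.02% of all genes in either direction and 4.48% as higher in medial tissue. This count too shares the orbital libraries of the known contrast and is not read as support. Flrt2 and Tenm4 had values of 1.09 (SE 0.16) and 0.86 (SE 0.22). The median of all protein-coding genes above 12 kb was 0.40 here. With the trend removed Tenm2 (1.32, edgeR adjusted p = 0.023), Tenm3 (1.20, 0.0242) and Adgrl3 (0.68, 0.0201) remained past the threshold, but without orbital control replicate 3 none of the 3 did (1.48, 1.30 and 0.76, edgeR adjusted p = 0.0782, 0.103 and 0.0619). Leaving out orbital control replicate 1 or 2 ended the calls of Tenm2 and Tenm3, medial control replicate 2 those of Tenm3 and Adgrl3, and medial control replicate 3 all 3. Without the row block none passed. Of the markers, 5 of 8 microglial genes passed as lower in medial controls (89.1 to 182 CPM summed), as did 3 of 6 meningeal genes (339 to 1459 CPM). So did 4 of 10 radial glia and progenitor genes (683 to 952 CPM) and 3 of 10 cell cycle genes (89.5 to 143 CPM). Passing as higher were 3 of 7 excitatory neuron genes, 3 of 8 upper layer and 3 of 8 deep layer genes. Orbital sums of the excitatory and deep layer genes were 1498 to 2324 and 757 to 1142 CPM, and medial sums of the 3 neuronal lists 2093 to 2837, 1546 to 2126 and 1076 to 1390 CPM. In the striatal list 2 of 8 genes passed as lower in medial controls. The part of these markers was not tested either.

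**Figure D4:**
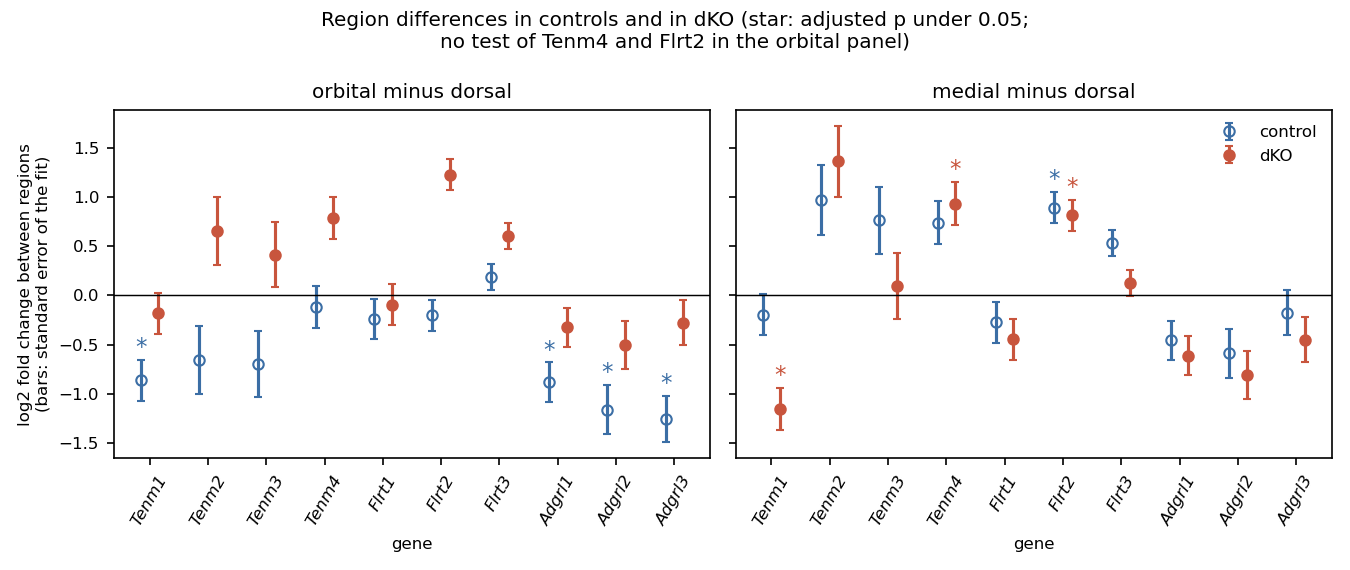
Log2 fold change of orbital (left) or medial (right) minus dorsal tissue for each gene, in controls (open) and dKO (filled), with bars of 1 standard error; a star marks an edgeR adjusted p under 0.05, and Tenm4 and Flrt2 were not tested in the left panel. The latrophilins lie at -1.26 to -0.88 in orbital minus dorsal controls and at -0.50 to -0.28 in dKO.

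In dKO tissue 3 members differed between medial and dorsal libraries. Tenm1 was lower in medial than in dorsal dKO tissue (18.7, 11.3 and 6.35 CPM against 35.8, 26.8 and 13.6 CPM in sets A, B and C; -1.15, SE 0.21, edgeR adjusted p = 0.0142), where controls differed by -0.19. Flrt2 (0.82, SE 0.16, edgeR adjusted p = 0.0172) and Tenm4 (0.93, SE 0.21, edgeR adjusted p = 0.0417) were higher in medial dKO tissue. These 3 of 10 stood beside 2.09% of all genes. Upper layer genes passed as lower in medial dKO tissue in 5 of 8 cases (1372 to 1456 CPM summed, 2135 to 3086 in dorsal dKO). Passing as higher were 3 of 10 radial glia and progenitor genes (1262 to 1892 and 786 to 890 CPM), 2 of 10 cell cycle genes (290 to 496 and 194 to 242 CPM) and 1 of 6 astrocyte genes (478 to 674 and 302 to 406 CPM). The part of these lists was not tested. In the excitatory neuron and deep layer lists 1 gene each passed as higher and 1 as lower. Of 8 interneuron genes 1 passed as lower, and so did 1 of 8 striatal genes, with their part not tested either. The change of the members' region differences with genotype passed for none of the 3 with edgeR, DESeq2 or limma-voom. Flrt2 and Tenm4 had like values in controls (0.89 and 0.74). With sets B and C alone no member passed in this comparison, nor without medial or dorsal dKO replicate 1 or 2. Without medial dKO replicate 3 only Tenm1 passed, and without dorsal dKO replicate 3 only Flrt2. None passed without the row block, and limma-voom left Tenm1 out (adjusted p = 0.0526).

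Orbital and dorsal dKO tissue differed in none of the 8 members tested with edgeR, of which Flrt3 had an unadjusted p under 0.05 (0.60, SE 0.13, edgeR adjusted p = 0.0796), while 0.486% of all genes passed. DESeq2 called Flrt3 and limma-voom none of the 8. Latrophilins were at -0.32 (Adgrl1), -0.50 (Adgrl2) and -0.28 (Adgrl3). Flrt2, not tested, held 286, 220 and 132 CPM in orbital and 125, 63.0 and 74.8 CPM in dorsal dKO tissue. Its log2 difference was 1.23 (SE 0.16). None of the 8 passed between medial and orbital dKO tissue with edgeR or limma-voom, where 0.016% of all genes did with edgeR; Tenm1 at -0.97 and Flrt3 at -0.47 had an unadjusted p under 0.05, and DESeq2 called Tenm1.

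Flrt1 (chromosome 19, 7092014 to 7105729, minus strand), the third FLRT, passed in no comparison. It held 4.43 to 13.0 CPM across the 18 libraries and its dKO differences were -0.02, -0.32 and -0.20 in orbital, medial and dorsal tissue. It lies within Macrod1 on the other strand without shared exons.

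Other genes of the pathway, taken as a list of 16 binding partners and regulators, were read in the same fits. Among the partners reported, the FGF receptor Fgfr1, to which FLRTs bind, rose in medial dKO tissue (0.65, SE 0.15, edgeR adjusted p = 0.0358). None passed in orbital or dorsal dKO tissue or in the summed counts with edgeR, against 3, 2 and 3 at an unadjusted p under 0.05. Among the partners reported, values for those with the lowest p were 0.54 for Shank2 and 1.06 for Nrxn3 in orbital tissue, 0.41 for Adgrl4 in dorsal tissue and -0.61 for Shank1 in summed medial and dorsal tissue.

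Between regions of controls, 7 of 16 partners differed between orbital and dorsal tissue, beside 15.8% of all genes in either direction. Lower in orbital were the FLRT receptor Unc5d (-1.69, SE 0.34), the neurexins Nrxn2 (-1.05) and Nrxn3 (-0.70), the guidance receptor Robo1 (-1.03) and the latrophilin-binding scaffolds Shank2 (-0.89) and Shank3 (-0.72). The glypican Gpc3, which binds Unc5d in migrating neurons, was higher (1.17, SE 0.28), and edgeR adjusted p values of the 7 ran from 0.00706 to 0.0388. Robo1 (1.06) was higher and Gpc3 (-1.29) lower in medial than in orbital controls. In dKO tissue Unc5c (-1.44) and Rnd1 (-0.98), a small GTPase that binds FLRT3, were lower and Fgfr1 (0.62) higher in medial than in dorsal tissue.

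Levels of the members over the 18 libraries were related in pairs, given here as a description because libraries share rows, depth and the length trend. Tenm2 and Tenm4 had a Pearson r of 0.876 for log2 CPM and Adgrl2 and Adgrl3 of 0.847. Among 11024 protein-coding genes of at least 5 CPM, Tenm4 was most like Fam214a (r 0.92), Cemip2 (0.896) and Tenm2 (0.876). Flrt2 was nearest to the neural adhesion gene Ncam2 (0.889), Nrip1 (0.871) and the glutamate receptor gene Grik2 (0.869), and Adgrl3 to Syt14 (0.964), Faxc (0.963) and Cblb (0.957). For Tenm1 the nearest were Sv2c (0.917), Map1a (0.915) and Pclo (0.889), for Tenm2 Cntn5 (0.878), Tenm4 (0.876) and Etv6 (0.876), and for Tenm3 Xpr1 (0.904), Dzank1 (0.897) and Tmem245 (0.888). Flrt1 had Hnrnpul2 (0.872), Zhx1 (0.828) and Dstyk (0.817), and Flrt3 had Tshr (0.899), Pde4b (0.863) and Arhgef28 (0.858). Adgrl1 was most like Shisa7 (0.924), Cnksr2 (0.9) and Slc11a2 (0.899), and Adgrl2 most like Fam160b1 (0.973), Frmd4a (0.964) and Lmtk2 (0.957).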

How the data were processed

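Fragment counts per gene were used as deposited. Per the file headers, the authors made the counts with featureCounts 1.6.2 from paired reads, ignoring strand, and the submitters' processing notes name STAR 2.6; the annotation was Ensembl 94 on GRCm38, with symbols from GENCODE M21. The 18 columns that match the labels entered, and 6 other columns were not used. Genotype differences were fitted with edgeR 4.0.16 (quasi-likelihood F test, TMM, filterByExpr with a count minimum of 10) on 6 group means and the title prefix over all 18 libraries, and region differences with each row of 3 regions as a block. P-values were adjusted by Benjamini-Hochberg over all genes tested, with a threshold of 0.05. All members are named, as are partners past the threshold, the 2 with the lowest p per genotype comparison and the 3 genes most like each member. The values of 1 listed partner are not reported here. Members and lists were chosen with earlier results of these data known. Alternatives used DESeq2 1.42.0, limma 3.58.1, other size factors, filters and covariates, and libraries left out. Length offsets and the restriction to sets B and C were chosen after seeing the data. Scripts were tested on simulated data (R 4.3.3, Python 3.11.15).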

Additional observations from a re-analysis of the deposited data

Results flagged for a closer look

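Flrt2 was the member whose sets moved in opposite directions between regions. Its mean log2 difference of dKO from control over the 3 sets was 0.947 in orbital tissue, against -0.451 for medial and -0.416 for dorsal tissue. All 3 sets were higher in orbital tissue and all 3 lower in each other region, so that orbital exceeded medial tissue by 1.398 and dorsal tissue by 1.363. The lower values included -0.024 in medial set A and -0.083 in dorsal set C, both small. Neither lower value passed (edgeR adjusted p = 0.229 in medial and 0.707 in dorsal tissue). The orbital values of Flrt2 were known when the genes were chosen, so no test is read for this difference.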

How the results depend on the processing

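Counts of members past the threshold are given with the main count first. Those that use orbital libraries include Tenm4 and Flrt2 without being support. For the orbital genotype difference and its comparison with other regions they show only how the fit depends on settings. No member counts as tested there. For dKO against control in orbital tissue (1) the count was 0 with RLE size factors, without the title prefix, with length offsets and with sets B and C, 4 without the filter on low counts and 3 with DESeq2. In medial tissue (0) it was 1 without the filter, with DESeq2, with limma-voom and with length offsets, Flrt3 in each, and in summed tissue (0) 1 without the filter and 1 with DESeq2. Between regions of controls, medial and dorsal tissue (1) gave 6 without the filter, 2 with DESeq2, 2 with length offsets and 0 without the row block; orbital and dorsal tissue (4) gave 1 without it; and medial and orbital tissue (5) gave 8 without the filter and 0 without the row block. In dKO, medial and dorsal tissue (3) gave 6 without the filter, 5 with DESeq2 and with length offsets, and 0 with sets B and C or without the row block. Orbital and dorsal dKO tissue (1) gave 3 without the filter, with DESeq2 and with length offsets, and 0 with sets B and C or without the block, and medial and orbital dKO tissue (0) gave 1 without the filter and with DESeq2. The dKO difference of orbital less dorsal tissue (0) gave 5 without the filter and 1 with DESeq2, and that of orbital less medial tissue (3) gave 8 and 5, and 0 with sets B and C or with the title prefix but no replicate block. With 1 library left out the counts ran from 0 to 1 (orbital genotype difference), 0 to 1 (medial less dorsal, control and dKO, and orbital less dorsal dKO), 1 to 4 (orbital less dorsal control), 1 to 8 (medial less orbital control) and 0 to 7 (orbital less medial difference). Groups left with 2 libraries are assumed to vary like the others. No member value that was past the threshold in either fit changed sign. The share of all genes called was not set beside each of these counts, so none is read as a result about the members. Calls over all genes changed with the settings too, for the orbital genotype difference from 7 to 122 without the filter and 430 with DESeq2. The cause of these changes was not tested.

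The set number used as a replicate block gave 1 member in medial tissue (0 without it) and 662 genes in place of 389. Same-set libraries of the 2 genotypes had correlations of deviations of 0.226, 0.027 and 0.283 (orbital), 0.174, -0.073 and 0.0671 (medial tissue) and 0.321, 0.0267 and 0.2 (dorsal tissue). Libraries of different sets had -0.281 to 0.0932 (orbital), -0.218 to 0.189 (medial tissue) and -0.265 to 0.0859 (dorsal tissue). Sets A and C thus lay above the different-set range in orbital and dorsal tissue, while set B and medial tissue did not. These values do not settle whether the sets are pairs, and the main fits did not use the number as a pairing. Over all genes, medial calls were 1118 with DESeq2, 672 with limma-voom, 156 without the title prefix, 156 with a sex term and 19 with sets B and C. Orbital calls (7) were 122 without the filter and 430 with DESeq2, dorsal calls (4) 26 and 81, and summed calls (3) 550 and 648. Counting error was small at 153 or more fragments per member and library, and the spread between libraries, with SEs of 0.18 to 0.47 in dorsal tissue, set what could be detected.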
